A study of Homo sapiens with 12 samples.

Results

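The genes described here are 38 listed members of the cell's adhesion machinery: integrin receptor subunits, the kinases and adaptors of focal adhesions, the small GTPases they feed, and membrane proteins that organise integrins. They were listed by name, and 36 of the 38 were measured, among 19775 genes in all. ITGB6 and CRK were not analysed here, because the 4 probe sets for ITGB6 are also assigned to another gene and none was matched to CRK. Each gene was read at the one of its probe sets (groups of short probes on the array) with the highest mean over the arrays, and the members have 127 probe sets in total.

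The samples were Ishikawa cells, an established line from an endometrial adenocarcinoma, so every group shares the genome and history of a single line. Affymetrix U133 Plus 2.0 arrays measured RNA in 4 groups of 3 arrays, labelled as biological replicates. All cells were transfected for 48 h, either with a negative control siRNA or with an siRNA labelled as specific for GPR54, and then received a peptide for 24 h. That peptide was 10 µM metastin-10 or a control peptide. Each siRNA was combined with each peptide. Arrays of cells given the GPR54 siRNA are called GPR54-labelled arrays below, for the reason given with the KISS1R values. By its design text the study asked which genes metastin-10 changes and whether GPR54 mediates those changes.

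Integrins are receptors made of an alpha and a beta subunit that hold matrix proteins outside the cell and, through talin, pull on actin inside it. Where they cluster, focal adhesions assemble: focal adhesion kinase and SRC phosphorylate paxillin and BCAR1, and DOCK1 then activates RAC1, which drives the cell edge forward. Endometrial epithelium uses integrins for attachment, and carcinoma cells use them to move. Metastin is the peptide product of the metastasis suppressor gene KISS1, metastin-10 is its short C-terminal form, and GPR54, encoded by KISS1R, is its receptor.

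Values are log2 expression after RMA normalization, so a difference of 1 is a doubling. Array medians lay between 5.13 and 5.22, and correlations between arrays ran from 0.9918 to 0.9981. On the first principal component the 4 replicate 3 arrays lay at 17.4 to 36.8 and the other 8 at -26.3 to 14.0. Replicate 3 was the highest of its group in all 4, but in the control siRNA, metastin-10 group replicate 1 (14.0) lay closer to replicate 3 (21.3) than to replicate 2 (3.05). KISS1R, the target of the siRNA, read 9.36 to 9.46 in GPR54-labelled arrays with control peptide and 9.28 to 9.60 in those with metastin-10. Under control siRNA it read 9.14 to 9.39 and 8.35 to 8.43, so the siRNA label did not go with less of its target, and every comparison by siRNA is one between arrays as labelled. Epithelial markers (7 of 7 measured) had means from 7.81 for MUC1 to 13.99 for KRT18, and 4 of 5 endometrial lineage markers from 8.59 for ESR1 to 10.84 for SOX17. Leukocyte markers (5 of 7 measured) lay between 3.48 and 5.20, fibroblast markers (6 of 6) between 2.56 and 6.03, endothelial markers (5 of 5) between 3.05 and 6.97 and platelet markers (3 of 3) between 2.87 and 6.26. Of the epithelial markers, KRT19 fell by 0.48 with metastin-10 under control siRNA (limma's adjusted p = 0.0090), and KRT19 and MUC1 were higher in the GPR54-labelled arrays with metastin-10, by 0.59 and 0.57 (adjusted p = 0.00165 and 0.0307). The mean level of the 7 was 11.39 to 11.50 in the control siRNA, metastin-10 arrays and 11.64 to 11.76 in the other 9. No marker of the other lists was called in any comparison. KRT19 was called in the 2 comparisons in which CCN2 was. Of the members, CAV1 had an unadjusted p under 0.05 in both, ITGA2 and ITGB2 in the first and ITGAV in the second. The part of these markers in those results was not tested. In these bulk samples, fewer cells of a type and less RNA per cell cannot be told apart.

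No integrin or focal adhesion member passed the test in any of the 5 comparisons, with all arrays or with replicates 1 and 2 only. The test was limma's moderated test with Benjamini-Hochberg adjustment over 54613 probe sets, two-sided, with a threshold of 0.05. Across all genes it called 0.607% for metastin-10 minus control peptide under control siRNA and 0% for that difference in the GPR54-labelled arrays. It called 0% for the siRNA label (GPR54-labelled minus control siRNA) with control peptide, 1.04% for it with metastin-10, and 0.106% for the interaction, which is the metastin-10 difference in GPR54-labelled arrays minus that under control siRNA. The smallest adjusted p-values from limma among members were 0.194 (ITGA2), 0.999997, 0.319 (ITGB8), 0.269 (ITGAV) and 0.581 (ITGA2), in that order of comparisons.

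Before adjustment, limma put 3 of 36 members under 0.05 for metastin-10 under control siRNA, against 11.9% of all genes. These counts are from the fit without a term for the replicate number. In the GPR54-labelled arrays it put 0 members there, against 1.81%. The siRNA comparisons gave 2 members for control peptide arrays, against 2.8%, and 2 for metastin-10 arrays, against 13.1%, and the interaction gave 3, against 6.28%. Groups of 3 arrays that did not overlap were counted in the same way: 3 members for metastin-10 under control siRNA against 19.6% of all genes, 4 in the GPR54-labelled arrays against 4.68%, 3 for the siRNA label with control peptide against 9.23% and 6 with metastin-10 against 17.5%. As shares of the 36, the member counts lay under those of all genes for metastin-10 under control siRNA, by either count. For the siRNA label with metastin-10 they lay under it by p and close to it by non-overlap. The 4 members without overlap for metastin-10 in the GPR54-labelled arrays lay above the share of all genes. Every one of these member counts is at most 6 genes, so none was read as a lack or an excess of members.

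How large a difference could have gone unseen at the probe set read for each member is bounded by the intervals. These are 95% confidence intervals for each member alone, not adjusted for the number of members. They do not bound its other probe sets: another ITGB8 set was at -0.36 for metastin-10 under control siRNA (limma's unadjusted p = 0.313). For members low on the scale, such as ITGA4 (mean 3.69), they bound the array value, and detection was not tested. For metastin-10 under either siRNA label, all 36 intervals lay within a 1.5-fold change in either direction. For the siRNA label 35 of 36 did with each peptide, the exceptions being ITGB8 with control peptide (reaching 1.85-fold) and ITGA1 with metastin-10 (reaching 1.56-fold). For the interaction 22 of 36 did, and all 36 intervals lay within 2-fold in each of the 5 comparisons. A member's interval typically extended 0.22 to each side of its log2 difference, or 0.32 for the interaction.

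**Figure D1:**
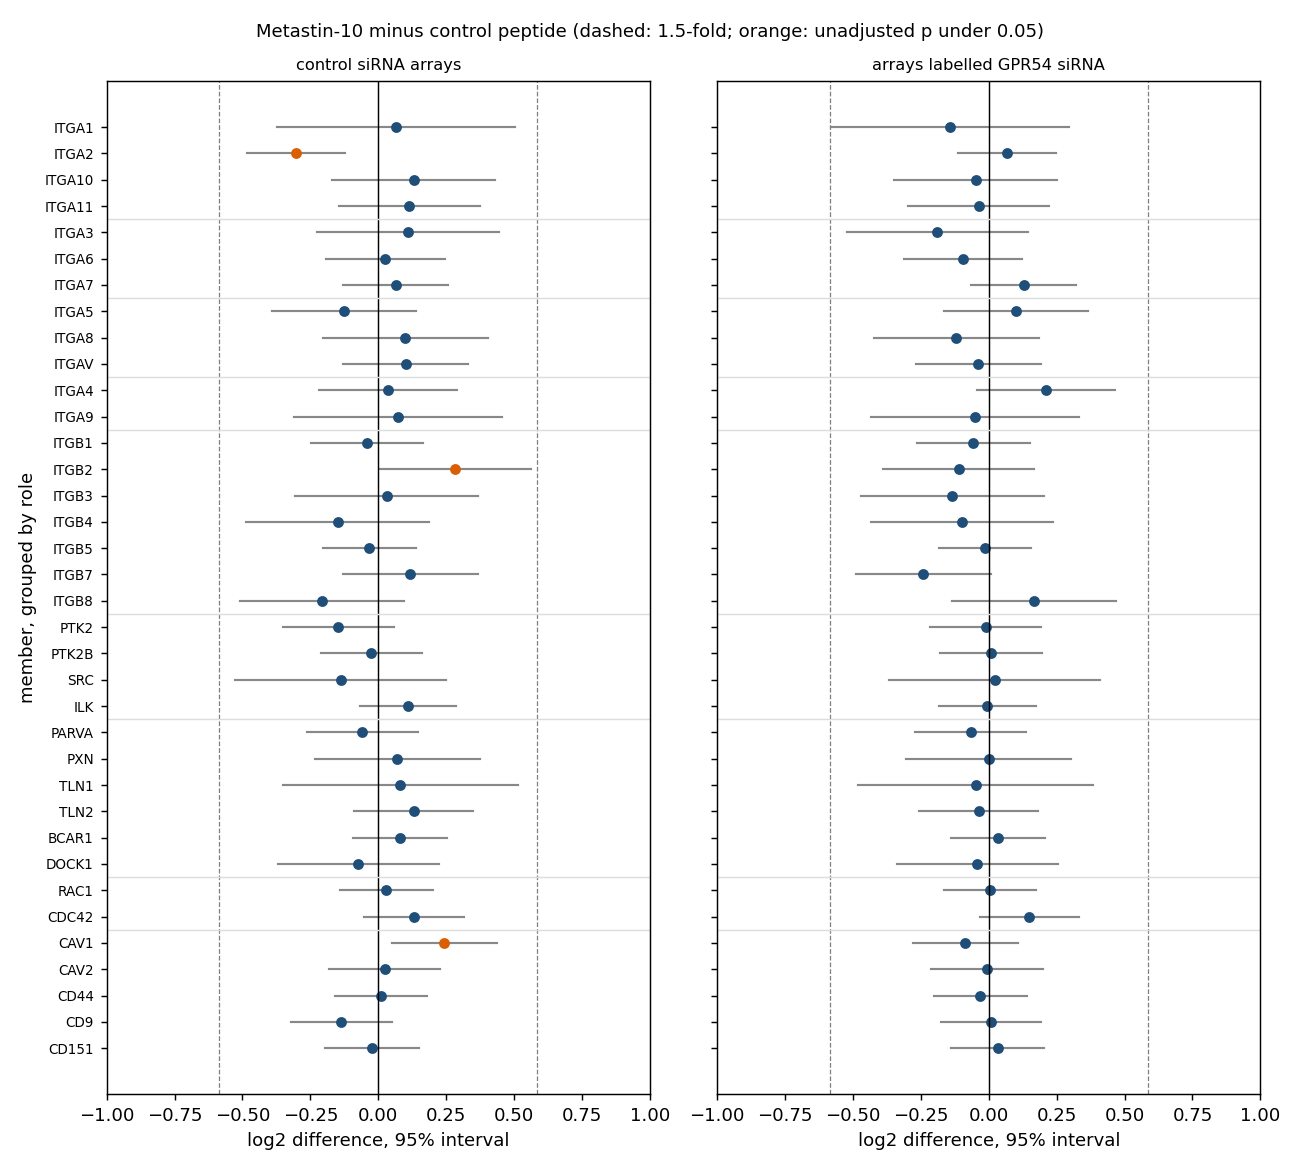
Log2 difference of metastin-10 minus control peptide for each of the 36 members, grouped by role, with 95% intervals, under control siRNA (left) and in the GPR54-labelled arrays (right). Dashed lines mark 1.5-fold, orange points have an unadjusted p under 0.05 (ITGA2, ITGB2 and CAV1, left panel), and every interval lies between the dashed lines.

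The members' differences scattered around 0. Their median log2 difference with metastin-10 was 0.03 under control siRNA (range -0.30 to 0.28, 23 members above 0 and 13 below), where the median of all genes was 0.0072. In the GPR54-labelled arrays it was -0.03 (range -0.24 to 0.21, 12 above and 24 below), against -0.0097 for all genes. For the siRNA label the members' median was 0.02 with control peptide (range -0.59 to 0.18), the same as the 0.02 of all genes, and -0.05 with metastin-10 (range -0.34 to 0.18), against 0.00074. The interaction had a median of -0.04 and ran from -0.39 for ITGB2 to 0.37 for ITGB8. The siRNA and metastin-10 comparisons share arrays, so their values for a gene are not independent.

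Of the collagen-binding alpha subunits, ITGA2 had the smallest p for metastin-10 under control siRNA. ITGA2 encodes the alpha subunit that pairs with ITGB1 to bind collagen on epithelial cells and platelets. With control siRNA it read 8.09, 8.26 and 8.09 with control peptide against 7.73, 7.94 and 7.86 with metastin-10. In the GPR54-labelled arrays it read 7.97, 7.91 and 7.90 with control peptide against 7.99, 8.05 and 7.94 with metastin-10. The control siRNA, control peptide arrays were thus the highest of the 12, above all metastin-10 arrays under control siRNA and all GPR54-labelled arrays. The metastin-10 difference under control siRNA was -0.30 (SE 0.08, interval -0.48 to -0.12, limma's adjusted p = 0.194) and in the GPR54-labelled arrays 0.07 (-0.11 to 0.25). The interaction was 0.37 (0.11 to 0.63, adjusted p = 0.581), and the siRNA difference was -0.22 (-0.40 to -0.04) for control peptide and 0.15 for metastin-10. The second ITGA2 probe set did not follow: its metastin-10 difference under control siRNA was 0.05 and its siRNA difference with control peptide -0.08.

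ITGA1, ITGA10 and ITGA11, the other collagen-binding alphas, known from mesenchymal cells, cartilage and fibroblasts in that order, had metastin-10 differences of 0.06, 0.13 and 0.12 under control siRNA and of -0.14, -0.05 and -0.04 in the GPR54-labelled arrays. All their groups overlapped in these comparisons. ITGA1 ranged over 0.87 across the 12 arrays, with 4.43 and 5.30 both in the GPR54-labelled group with metastin-10.

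The laminin-binding alphas ITGA3, ITGA6 and ITGA7 differed by no more than 0.19 in any of the 4 pairwise comparisons. ITGA6, which pairs with ITGB4 in the hemidesmosomes of epithelia, read 9.01, 9.03 and 8.76 in the control siRNA, control peptide arrays and 8.91, 9.06 and 8.91 with metastin-10. The GPR54-labelled arrays read 8.93, 9.06 and 8.85 with control peptide against 8.90, 8.94 and 8.72 with metastin-10. All 4 groups overlapped, and replicate 3 was the lowest array, or level with the lowest, of each. The metastin-10 difference was 0.03 (interval -0.19 to 0.24) under control siRNA and -0.09 (-0.31 to 0.12) in GPR54-labelled arrays.

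Among the alphas that bind the RGD motif of fibronectin and vitronectin, ITGAV was the member with the smallest p for the siRNA label with metastin-10. ITGAV is the shared alpha partner of ITGB1, ITGB3, ITGB5, ITGB6 and ITGB8. Under control siRNA it read 11.46, 11.37 and 11.16 with control peptide against 11.37, 11.60 and 11.34 with metastin-10. GPR54-labelled arrays gave 11.09, 11.22 and 11.09 with control peptide against 11.03, 11.24 and 11.02 with metastin-10. With metastin-10, each GPR54-labelled array lay below each control siRNA array, while with control peptide replicate 3 of the control siRNA group overlapped the labelled group. The siRNA difference was -0.34 with metastin-10 (interval -0.57 to -0.11, limma's adjusted p = 0.269) and -0.20 with control peptide (-0.43 to 0.03), and metastin-10 gave 0.10 and -0.04 under the control and the labelled siRNA. ITGA5, the fibronectin receptor alpha, was at -0.13 and 0.10 for metastin-10, and ITGA8, the nephronectin receptor alpha of the developing kidney, at 0.10 and -0.12.

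ITGA4 and ITGA9 bind VCAM1 and related ligands and are best known from leukocytes and other motile cells. ITGA4 read 3.50, 3.89 and 3.48 in the control siRNA, control peptide arrays and 3.58, 3.63 and 3.78 with metastin-10. In GPR54-labelled arrays there were 3.67, 3.52 and 3.69 with control peptide against 3.91, 3.90 and 3.71 with metastin-10. The last group lay above its control peptide group without overlap, by 0.21 (interval -0.04 to 0.46), but replicate 2 of the control siRNA, control peptide group, at 3.89, lay within its range. No detection calls were used, so whether values this low on the scale lie above background was not tested. ITGA9 was at 0.07 and -0.05 for metastin-10 under the 2 siRNA labels.

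**Figure D2:**
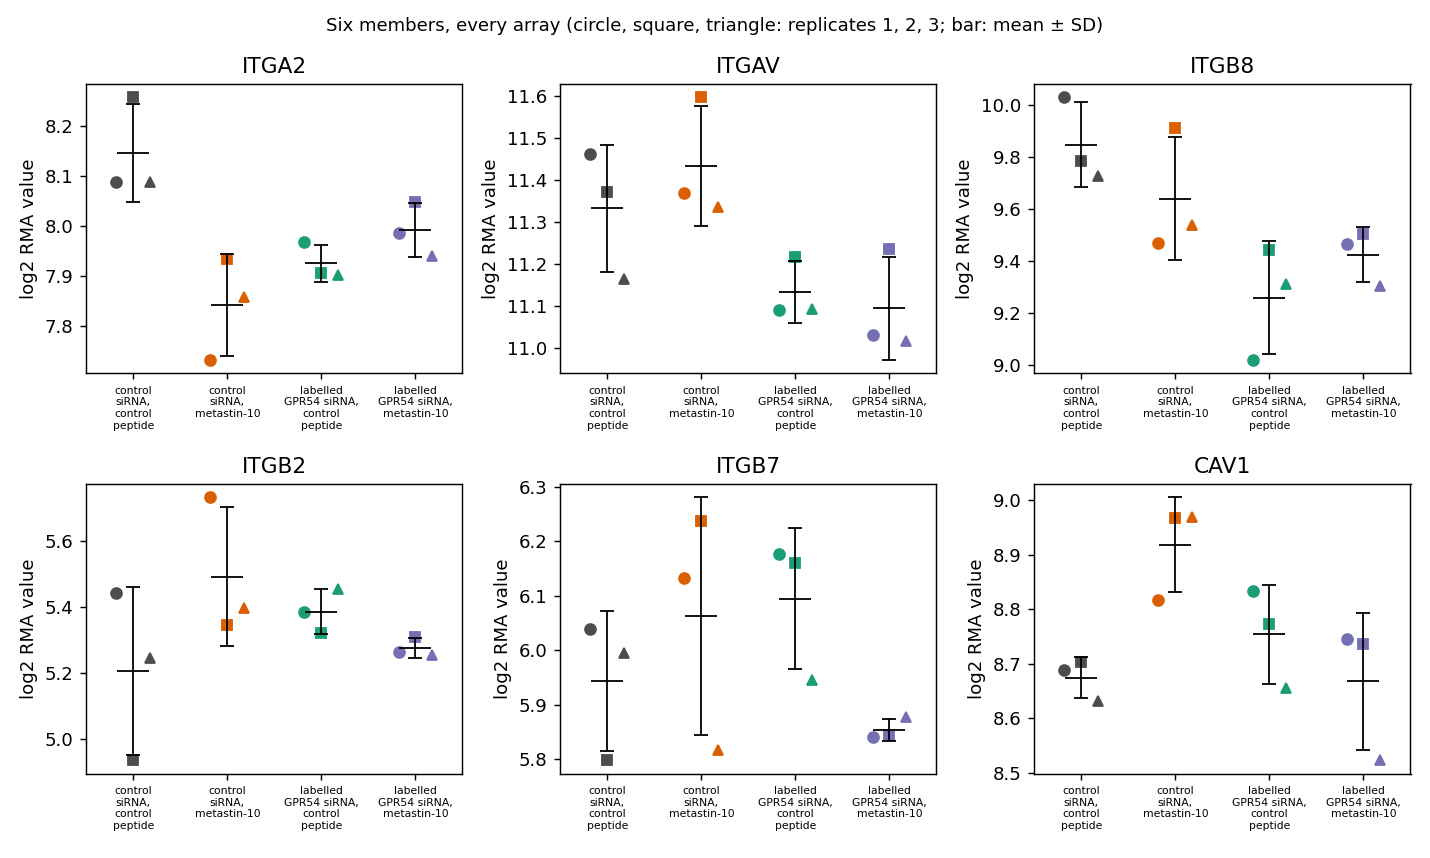
Log2 RMA values of ITGA2, ITGAV, ITGB8, ITGB2, ITGB7 and CAV1 in each of the 12 arrays, with circles, squares and triangles for replicates 1, 2 and 3 and bars for the group mean ± SD (n = 3); each panel has its own vertical scale. ITGA2 is highest in the 3 control siRNA, control peptide arrays, CAV1 in 2 of the 3 control siRNA, metastin-10 arrays, and ITGB8 spans 9.02 to 10.03.

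Of the beta subunits, ITGB1 is the partner of most alphas. Its range over the 12 arrays was 0.34, against a median of 0.44 over the members. It read 12.63, 12.66 and 12.51 under control siRNA with control peptide against 12.48, 12.67 and 12.52 with metastin-10. The GPR54-labelled values were 12.52, 12.64 and 12.48 with control peptide against 12.54, 12.60 and 12.33 with metastin-10. All groups overlapped, and the metastin-10 difference was -0.04 (interval -0.25 to 0.17) under control siRNA and -0.06 (-0.26 to 0.15) in GPR54-labelled arrays.

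ITGB5, a partner of ITGAV that binds vitronectin, stayed between 9.40 and 9.60 in all 12 arrays. Its values were 9.60, 9.49 and 9.50 under control siRNA with control peptide against 9.60, 9.40 and 9.49 with metastin-10. In GPR54-labelled arrays there were 9.57, 9.53 and 9.52 with control peptide against 9.57, 9.51 and 9.49 with metastin-10. The groups overlapped throughout, and the pairwise differences of ITGB5 lay between -0.03 and 0.03.

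ITGB8 pairs with ITGAV in a receptor that activates latent TGF-beta, and it varied most of the 36 members, over 1.01 across the arrays. It read 10.03, 9.79 and 9.72 under control siRNA with control peptide against 9.47, 9.91 and 9.54 with metastin-10. Its GPR54-labelled arrays read 9.02, 9.44 and 9.31 with control peptide against 9.46, 9.50 and 9.30 with metastin-10. With control peptide, the GPR54-labelled arrays lay below the control siRNA arrays without overlap; with metastin-10 the groups overlapped. The siRNA difference with control peptide was -0.59 (SE 0.14, interval -0.89 to -0.29, limma's adjusted p = 0.319), and with metastin-10 it was -0.22 (-0.52 to 0.09). Metastin-10 gave -0.21 under control siRNA and 0.17 in GPR54-labelled arrays. The other 4 ITGB8 probe sets had siRNA differences with control peptide of -0.33, -0.25, -0.15 and 0.12, and 3 of the 4 had the sign of the brightest.

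ITGB2 and ITGB7, subunits best known from leukocytes, had opposite signs for metastin-10 under the 2 siRNA labels. So did ITGB3, ITGB8 and many members outside the beta subunits. ITGB2, whose brightest set carries the x suffix that Affymetrix gives to sets with probes that may match other transcripts, read 5.44, 4.93 and 5.24 under control siRNA with control peptide against 5.73, 5.34 and 5.40 with metastin-10. Among GPR54-labelled arrays it read 5.38, 5.32 and 5.45 with control peptide against 5.26, 5.31 and 5.25 with metastin-10. The control siRNA groups overlapped, through replicate 1 with control peptide, and the labelled groups did not. The metastin-10 difference was 0.28 (interval 0.00 to 0.56, limma's adjusted p = 0.463) under control siRNA and -0.11 (-0.39 to 0.17) in GPR54-labelled arrays. The first value was 0.15 without control siRNA, control peptide replicate 2 and 0.16 without control siRNA, metastin-10 replicate 1. The other ITGB2 probe sets gave 0.09 and -0.13 under control siRNA.

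ITGB7 read 6.04, 5.80 and 5.996 under control siRNA with control peptide against 6.13, 6.24 and 5.82 with metastin-10. GPR54-labelled values were 6.18, 6.16 and 5.95 with control peptide against 5.84, 5.84 and 5.88 with metastin-10. The last group had the smallest SD of the 4 (0.02) and lay below its control peptide group, though 1 array of each control siRNA group was as low. The metastin-10 difference was -0.24 (interval -0.49 to 0.01) in the GPR54-labelled arrays and 0.12 (-0.13 to 0.37) under control siRNA, and the interaction was -0.36 (-0.71 to -0.01, limma's adjusted p = 0.798). ITGB3, the beta subunit of the platelet and vitronectin receptors, was at 0.03 and -0.13 for metastin-10, and ITGB4, the hemidesmosome subunit, at -0.15 and -0.10.

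The 4 kinases showed no metastin-10 difference larger than 0.15. PTK2, which encodes focal adhesion kinase, read 9.78, 9.83 and 9.72 under control siRNA with control peptide against 9.58, 9.68 and 9.63 with metastin-10, with no overlap, and the difference was -0.15 (interval -0.35 to 0.06). Arrays of the GPR54 label read 9.81, 9.88 and 9.71 with control peptide against 9.93, 9.83 and 9.60 with metastin-10, which overlapped, and the difference was -0.01 (-0.22 to 0.19). PTK2 is named for its non-overlap, chosen after its values were seen. Its other probe sets, with means of 8.54, 5.72 and 3.11, had the same sign under control siRNA, at -0.14, -0.14 and -0.21. None of these had an unadjusted p under 0.05 from limma. Under control siRNA the differences were -0.03 for PTK2B, the related calcium-responsive kinase, -0.14 for SRC, the kinase that FAK recruits, and 0.11 for ILK, which joins beta tails to parvin.

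Adaptors and scaffolds carry the signal between these kinases and actin. The metastin-10 differences under control siRNA were -0.06 for PARVA, which ties ILK to actin, 0.07 for the scaffold PXN (paxillin), 0.08 and 0.13 for the talins TLN1 and TLN2, 0.08 for the SRC substrate BCAR1 and -0.07 for the RAC1 activator DOCK1. In the GPR54-labelled arrays those of PARVA, TLN1, TLN2, BCAR1 and DOCK1 were -0.07, -0.05, -0.04, 0.04 and -0.04, and the median of the 6 measured adaptors was -0.04. None of the 6 reached an unadjusted p of 0.05 in any of the 5 comparisons. The interval for TLN1 was among the widest (-0.35 to 0.51 under control siRNA), and its arrays ran from 6.96 to 7.75.

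RAC1 and CDC42 are the GTPases that build lamellipodia and filopodia. RAC1 had the smallest range of all 36 members, 0.17 across the 12 arrays, and a metastin-10 difference of 0.03 under control siRNA (interval -0.14 to 0.20). CDC42 read 10.96, 10.85 and 11.11 under control siRNA with control peptide against 11.17, 11.01 and 11.15 with metastin-10. GPR54-labelled arrays of CDC42 read 11.06, 11.01 and 11.03 with control peptide against 11.20, 11.19 and 11.15 with metastin-10. The metastin-10 and control peptide groups of CDC42 overlapped under control siRNA and did not overlap in GPR54-labelled arrays. The differences were close in size, 0.13 (-0.05 to 0.31) and 0.15 (-0.03 to 0.33), and the interaction was 0.02. The other CDC42 probe sets did not share this. From the brightest down they gave -0.05, -0.21, -0.08 and 0.15 for metastin-10 under control siRNA. In GPR54-labelled arrays they gave 0.08, -0.05, 0.18 and -0.12.

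Among the membrane organisers, CAV1, the coat protein of caveolae, was the member with the next smallest p after ITGA2 for metastin-10. It read 8.69, 8.70 and 8.63 under control siRNA with control peptide against 8.82, 8.97 and 8.97 with metastin-10. Its values in GPR54-labelled arrays were 8.83, 8.77 and 8.66 with control peptide against 8.74, 8.74 and 8.52 with metastin-10. The control siRNA, metastin-10 arrays lay above the control peptide arrays of the same siRNA and above the GPR54-labelled metastin-10 arrays, without overlap. The metastin-10 difference was 0.24 (interval 0.05 to 0.44, limma's adjusted p = 0.352) under control siRNA and -0.09 (-0.28 to 0.11) in GPR54-labelled arrays. The siRNA difference with metastin-10 was -0.25 (-0.44 to -0.06, adjusted p = 0.347), and the interaction was -0.33 (-0.60 to -0.06, adjusted p = 0.702). The other CAV1 probe set gave 0.29 for metastin-10 under control siRNA, with the same sign, and -0.08 for the siRNA label with metastin-10.

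CD9, a tetraspanin that associates with integrins, read 12.12, 12.31 and 12.39 under control siRNA with control peptide against 12.17, 12.06 and 12.20 with metastin-10. In the GPR54-labelled arrays it read 12.36, 12.26 and 12.31 with control peptide against 12.34, 12.32 and 12.30 with metastin-10. With metastin-10, the GPR54-labelled arrays of CD9 lay above those under control siRNA without overlap. That difference was 0.18 (interval -0.01 to 0.36, limma's adjusted p = 0.51), and with all CD9 probe sets averaged it was -0.03. The set read had a mean of 12.26. The other CD9 sets, at -0.19 and -0.08, had means of 4.03 and 3.54, and the average weighs them as much as the bright set. CAV2, the partner of CAV1, was at 0.02 for metastin-10 under control siRNA, the hyaluronan receptor CD44 at 0.01 and the laminin receptor-associated tetraspanin CD151 at -0.02.

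**Figure D3:**
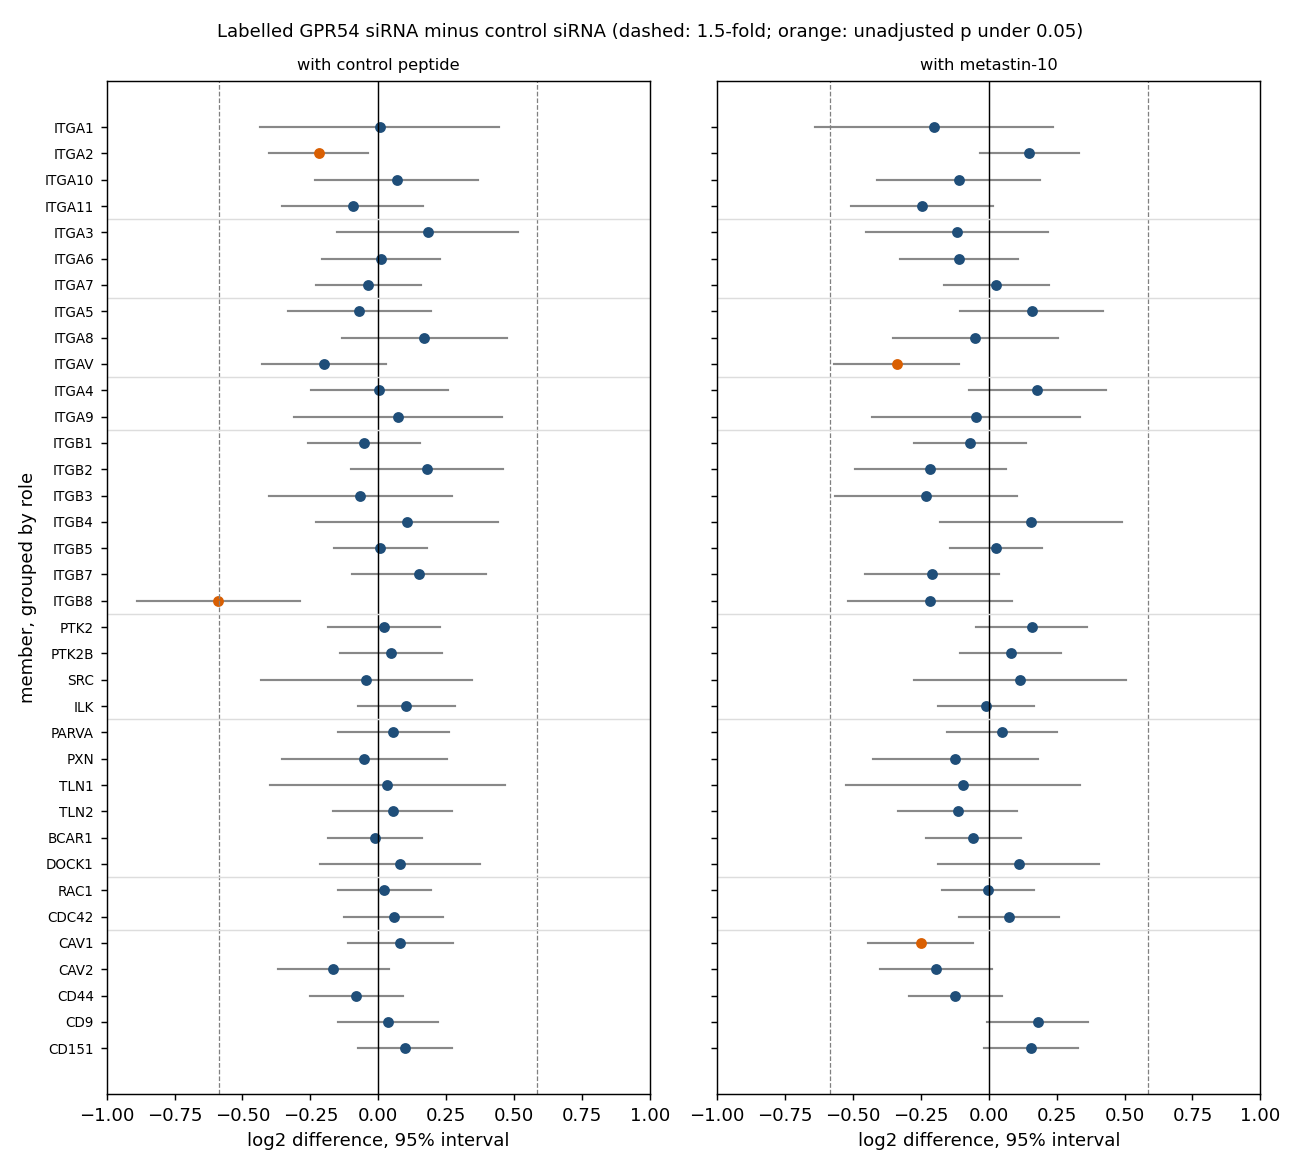
Log2 difference of the GPR54-labelled arrays minus the control siRNA arrays for each of the 36 members, with 95% intervals, in control peptide arrays (left) and metastin-10 arrays (right). Orange points (unadjusted p under 0.05) are ITGA2 and ITGB8 on the left and ITGAV and CAV1 on the right; none passed the adjusted threshold, and the ITGB8 interval on the left reaches -0.89.

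Reading every probe set gave the same count: limma called 0 of the 127 member probe sets in each of the 5 comparisons, and 7, 5, 6, 7 and 5 of them had an unadjusted p under 0.05. Over all 54613 probe sets it called 0.428%, 0%, 0.0531%, 0.579% and 0.0513%, and 10.6%, 2.21%, 4.25%, 10.1% and 6.09% had an unadjusted p under 0.05. Probe sets of one gene often disagreed in sign. Among 29 members with more than 1 probe set, 48 of the 91 other probe sets had the sign of the brightest for metastin-10 under control siRNA, and 48 did in the GPR54-labelled arrays. For the siRNA label the count was 44 of 91 for control peptide and 38 for metastin-10. Many of these other sets were low on the scale, with means such as 2.94 for an ITGA8 set and 2.25 for an ITGB1 set. Detection was not tested, so the signs of such sets need not be readings of the gene. CD44, whose transcript is extensively spliced, has 13 probe sets, and their metastin-10 differences under control siRNA ran from -0.31 to 0.15. The sets at these ends were dim, with means of 4.01 and 3.16.

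**Figure D4:**
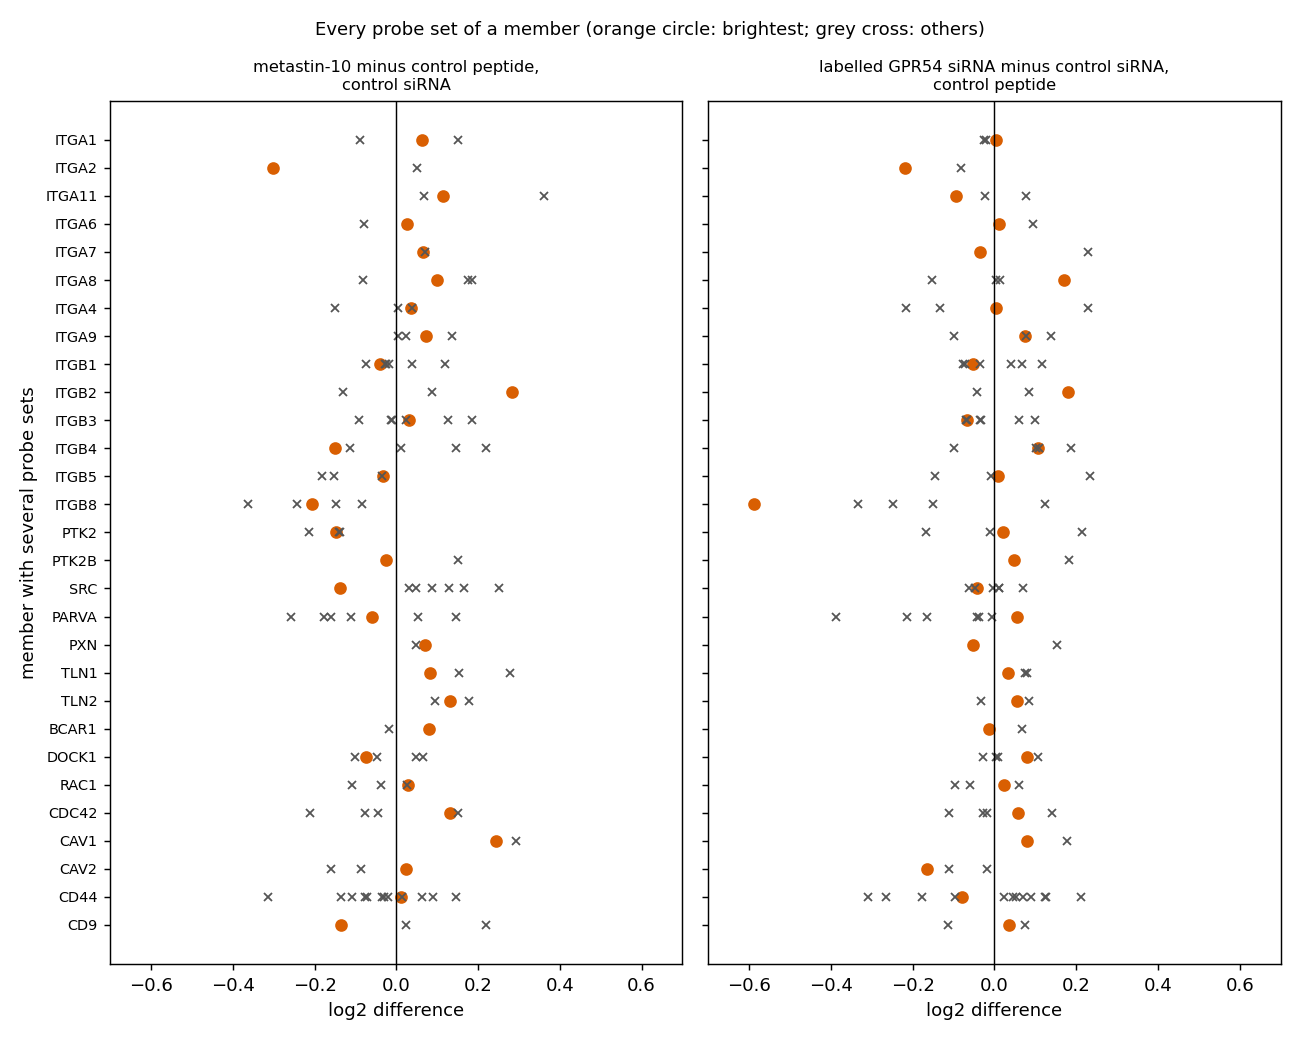
Log2 difference of each probe set of the 29 members that have more than 1, for metastin-10 minus control peptide under control siRNA (left) and for the siRNA label with control peptide (right). Orange circles are the brightest probe sets and grey crosses the others; ITGB8 at -0.59 on the right is the farthest from 0 in either panel.

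The rest of the adhesion pathway was read from 5 lists of 97 further genes, 92 of them measured. The lists were chosen with earlier results of these data known, so a call within them is no independent support. One gene passed the test, in 2 comparisons in which limma called 0.607% and 1.04% of all genes: CCN2, a secreted matricellular protein that binds integrins, among 16 measured ligands. It read 6.86, 7.04 and 7.02 under control siRNA with control peptide against 7.56, 7.83 and 7.77 with metastin-10. The GPR54-labelled arrays read 7.26, 7.22 and 6.96 with control peptide against 7.17, 7.24 and 6.84 with metastin-10. The control siRNA, metastin-10 arrays were the 3 highest of the 12. CCN2 rose with metastin-10 under control siRNA by 0.74 (SE 0.12, interval 0.48 to 1.01, limma's adjusted p = 0.0215) and was at -0.06 in the GPR54-labelled arrays, and the interaction was -0.81 (adjusted p = 0.209). With metastin-10 it was lower in the GPR54-labelled arrays, at -0.63 (adjusted p = 0.0412). Both calls sit near the threshold. The first was lost when any 1 of 5 arrays was left out, the control siRNA arrays other than metastin-10 replicate 1 (adjusted p from 0.0599 to 0.116), and the second when any 1 of 11 was, all but replicate 3 of the GPR54-labelled control peptide group (0.0562 to 0.187).

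In the other 4 lists limma called 0 genes in any comparison. The counts of unadjusted p-values under 0.05 that follow stand against 11.9%, 1.81%, 2.8%, 13.1% and 6.28% of all genes in the 5 comparisons, in order. The adhesion site proteins (32 of 35 measured) had 5, 1, 3, 3 and 3 genes with an unadjusted p under 0.05 in the 5 comparisons, and the median for metastin-10 under control siRNA was 0.03. PARVG, the parvin of blood cells, had the smallest p of that list, at -0.43 for the siRNA label with metastin-10 (adjusted p = 0.0874) and 0.34 for metastin-10 under control siRNA. The downstream signalling genes (26 of 27) had 0, 0, 1, 3 and 0, led by the phosphatase PTPN11 at -0.23 for the siRNA label with metastin-10 (adjusted p = 0.301). The caveola and tetraspanin genes (12 of 12) had 2, 1, 0, 2 and 1, led by the caveola coat gene CAVIN3 at 0.39 for the same comparison (adjusted p = 0.051). CAVIN2, of the same list, went the other way there, at -0.56 (limma's adjusted p = 0.153), as did CAV1 at -0.25. The 6 other integrin alphas had 0, 1, 0, 0 and 0, led by ITGAX, a leukocyte subunit, at 0.26 for metastin-10 in the GPR54-labelled arrays. The ligands, with CCN2 among them, had 6, 1, 0, 7 and 5 of 16.

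**Figure D5:**
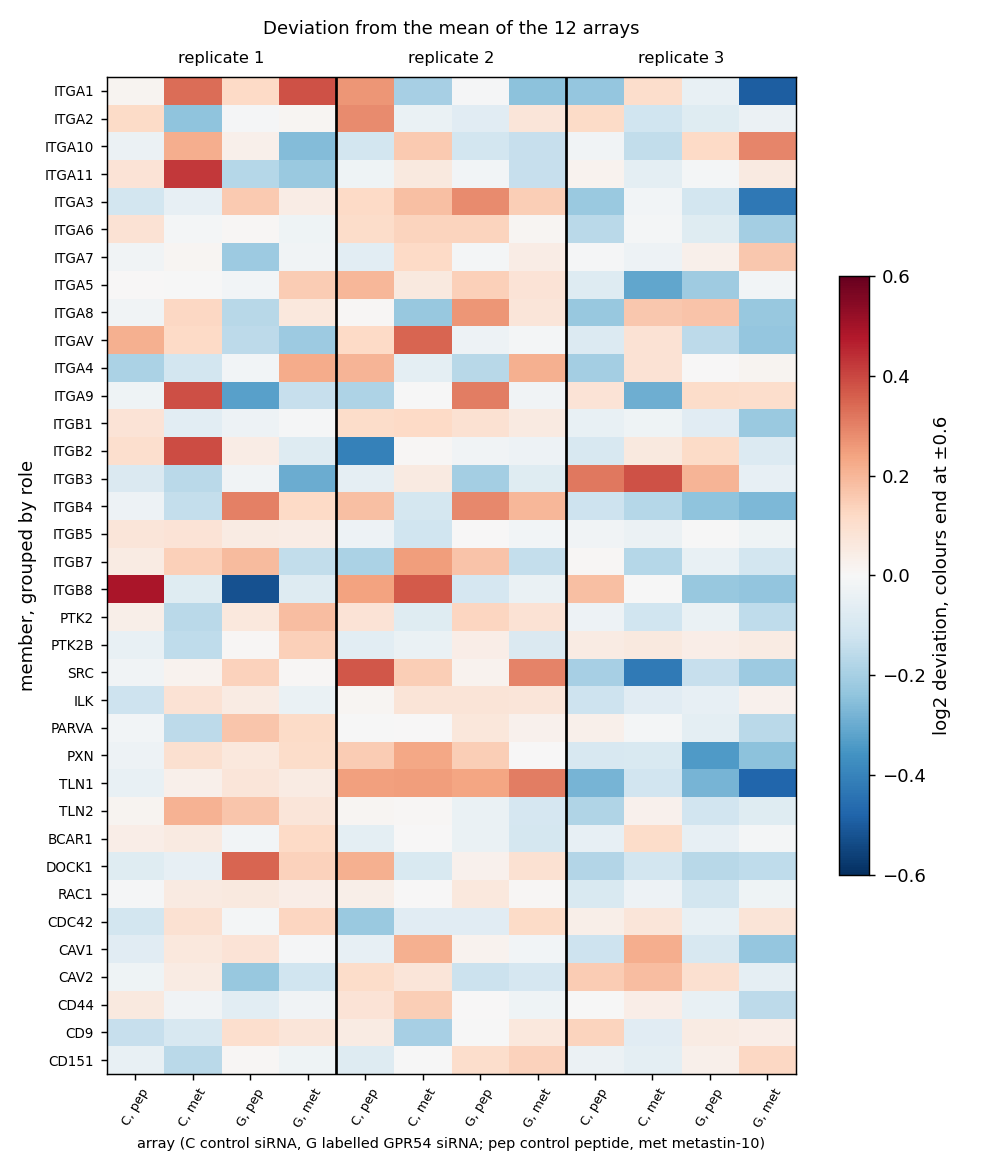
Deviation of each member's log2 value from its own mean over the 12 arrays, with arrays ordered by replicate number and, within it, by siRNA label and peptide. Replicate 3 values of TLN1, SRC, ITGB4, ITGA3 and PXN lie below the gene's mean (blue) in all 4 groups. For ITGA3 in the control siRNA, metastin-10 group the value is 6.86 against a mean of 6.88, which is close to white.

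The pooled within-group SD of a member had a median of 0.12, against 0.13 for all genes, and the median metastin-10 difference under control siRNA, without its sign, was 0.09. Part of that spread went with the replicate number. TLN1, the talin that links beta tails to actin, read 7.16, 7.33, 7.16 and 6.96 in the 4 replicate 3 arrays and 7.40 to 7.75 in the other 8.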

How the data were processed

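The authors deposited log2 values normalized by RMA, per the series' design text and the submitters' processing notes. The software that ran RMA is not given in the sources used here. RMA fits each probe set over all arrays. Differences of dim sets can be understated in RMA values. The table holds 54675 probe sets, of which 62 controls were left out. Of the 54613 tested, 41091 have 1 gene, 1801 several and 11721 are not listed in the platform annotation; 41037 symbols matched the GRCh38.p14 gene table by Entrez identifier and 0 changed. The members and lists were chosen with earlier results of these data known.

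Group means of 4 groups were fitted over all 12 arrays (8 residual degrees of freedom) with limma 3.58.1 in R 4.3.3, moderated by eBayes, tested on simulated data first. A p-value measures only the spread between these arrays, whose number limits the precision; no detection calls were used. Values in every array are given for the 3 members with the smallest p in each comparison and the 3 brightest alpha and beta subunits; other members are given by differences, ranges and counts. Of the neighbouring lists, genes past the threshold are named, else the one with the smallest p. CAVIN2 is named besides, because its sign is opposite to that of CAVIN3.

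Replicate numbers are shared by the groups. The p-values and intervals of the report are from a fit without them, unless an alternative is named. After subtracting group means, arrays of one number correlated at 0.262, 0.174 and 0.437 for metastin-10 under control siRNA, 0.372, 0.261 and 0.521 under GPR54 siRNA as labelled, 0.108, 0.21 and 0.545 for the siRNA label with control peptide, and -0.148, 0.262 and 0.0665 with metastin-10, so numbers were taken to pair arrays in the first 3 comparisons. Alternatives were a block for the number or for replicate 3, replicates 1 and 2 only, each array left out, the compared groups only, a filter on dim probe sets, centred array medians, array weights, a variance trend and the mean of all probe sets of a gene.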

Additional observations from a re-analysis of the deposited data

How the results depend on the processing

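The count of members called stayed at 0 in every comparison under all 21 alternatives (20 for the interaction), leave-one-out included. The smallest adjusted p-values reached were 0.0843, 0.329, 0.148, 0.0939 and 0.135, in the order of the report's comparisons. With the replicate block 0 members were called, and it changed no call. It did bring further members under limma's unadjusted p of 0.05. For the siRNA label these were ITGAV (0.0341) and CAV2 (0.0445) with control peptide. With metastin-10 they were ITGB3 (0.0404), CAV2 (0.0223) and CD151 (0.0457), and for the interaction ITGA3 (0.0472) and ITGB2 (0.0289). The share of all genes under 0.05 with the block was not counted. Each group holds the same replicate numbers, so the block leaves every difference as it was by construction and alters only its error: ITGA2, at -0.30 for metastin-10 under control siRNA, had limma's adjusted p = 0.108. One difference changed sign: CD9, for the siRNA label with metastin-10, was -0.029 with the mean of all probe sets. Its other sets had means of 4.03 and 3.54, and this setting weighs dim and bright sets alike. That setting also brought ITGA2 to -0.13 and ITGB2 to 0.08 for metastin-10 under control siRNA, ITGA4 and CDC42 to 0.047 and 0.048 for metastin-10 in GPR54-labelled arrays, ITGB8 to -0.24 for the siRNA label with control peptide, CAV1 to -0.17 for it with metastin-10 and the ITGA2 interaction to 0.24. With replicates 1 and 2 only, CAV1 was -0.15 for the siRNA label with metastin-10 and the ITGB7 interaction -0.59. The members' median crossed 0 as single arrays were left out for metastin-10 in GPR54-labelled arrays (-0.05 to 0.01), for the siRNA label with control peptide (-0.0095 to 0.05) and for the interaction (-0.07 to 0.0079; 0.02 with replicates 1 and 2 only). It kept its sign for metastin-10 under control siRNA (0.0015 without control peptide replicate 3 to 0.05 without metastin-10 replicate 1; 0.0054 with array medians subtracted) and for the siRNA label with metastin-10 (-0.07 to -0.00087, the latter without GPR54-labelled metastin-10 replicate 3). CCN2, tried after its values were seen, was past the threshold under 15 of 21 alternatives for metastin-10 under control siRNA and under 7 of 21 for the siRNA label with metastin-10, with no change of sign. Intervals of about 0.22 on the log2 scale limit what 3 arrays a group can show.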

Other observations

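In 18 of 36 members (50%) the replicate 3 array lay on the same side of the mean of replicates 1 and 2 in all 4 groups, 15 lower and 3 higher, against 5709 of 19775 genes (28.9%), of which 3784 were lower and 1925 higher. Averaged over the groups, replicate 3 was lower by 0.43 for the talin TLN1, by 0.37 for SRC, by 0.30 for ITGB4 and by 0.29 for both ITGA3 and PXN. It was higher by 0.32 for ITGB3, by 0.14 for CAV2 and by 0.07 for PTK2B. The members' median absolute shift was 0.094, against 0.079 over all genes. In 20 of 36 members that shift was larger than the metastin-10 difference under control siRNA (55.6%), against 42.8% of all genes. The labels give these arrays no batch, and the cause was not tested.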
